A study of Mus musculus with 383 samples.

Results

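The 10 genes described here encode TGF-beta ligands, their receptors, the proteins that hold the ligands latent in the matrix, and a feedback inhibitor of the pathway. They are Tgfb1, Tgfb2, Tgfb3 and Inhba (ligands), Tgfbr1, Tgfbr2 and Tgfbr3 (receptors), Ltbp1 and Ltbp2 (latent TGF-beta binding proteins) and Smad7 (feedback). They were taken by name, and all 10 were found among the 49585 genes of the count table. The cells came from squamous cell carcinomas of mouse skin and were read by Smart-seq2, which amplifies full-length cDNA from single cells. All cells shared one genotype, which included Lgr5CreER (Cre recombinase under control of the hair follicle stem cell gene Lgr5), p53fl/fl (a floxed p53) and Rosa26-YFP+/+ (a reporter that marks recombined cells). The 2 groups were YFP+ cells sorted as Epcam+ (70 cells, 62 kept) and YFP+ cells sorted as Epcam- (310 cells, of which 47 were left out by the filters on reads), with Epcam being an adhesion protein of epithelia. The labels name no treatment, age, animal or tumour of origin, so each population counts as 1 sample, and differences between them were described and not tested. The plots name the populations Epcam-positive and Epcam-negative.

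TGF-beta is secreted as a latent dimer bound to its own propeptide, and latent TGF-beta binding proteins tether this complex to the extracellular matrix until it is activated, for example by integrins that contain the alpha V chain. The active ligand binds the type II receptor Tgfbr2, which recruits and phosphorylates the type I receptor Tgfbr1, and Smad2 and Smad3 then carry the signal to the nucleus with Smad4. In skin the pathway is known both for restraining keratinocyte growth and for driving epithelial to mesenchymal transition (EMT) in carcinomas.

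The promoters of a pair of ligands with very different levels and of the most abundant binding protein are shown. They were chosen as annotated starting points of the transcripts compared below. Each runs from 250 bases before to 50 bases after the annotated start in RefSeq (build GRCm38.p6), 5′ to 3′ on the strand of the gene. Capitals mark matches to any of 5 motifs searched on both strands: the core promoter box with the letters TATAAA, the cyclic AMP response element with TGACGTCA, the AP-1 site with TGANTCA, the E-box with CACGTG and the Smad palindrome with GTCTAGAC. The Tgfb1 promoter lies at chr7:25686752-25687051 on the plus strand, that of Tgfb2 at chr1:186705940-186706239 on the minus strand and that of Ltbp1 at chr17:75005279-75005578 on the plus strand.
Tgfb1: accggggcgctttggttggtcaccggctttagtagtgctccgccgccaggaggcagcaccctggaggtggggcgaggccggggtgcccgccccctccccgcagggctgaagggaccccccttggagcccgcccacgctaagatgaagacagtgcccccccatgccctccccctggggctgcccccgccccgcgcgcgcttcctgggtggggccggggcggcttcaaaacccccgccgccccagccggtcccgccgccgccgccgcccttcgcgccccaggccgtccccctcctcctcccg
Tgfb2: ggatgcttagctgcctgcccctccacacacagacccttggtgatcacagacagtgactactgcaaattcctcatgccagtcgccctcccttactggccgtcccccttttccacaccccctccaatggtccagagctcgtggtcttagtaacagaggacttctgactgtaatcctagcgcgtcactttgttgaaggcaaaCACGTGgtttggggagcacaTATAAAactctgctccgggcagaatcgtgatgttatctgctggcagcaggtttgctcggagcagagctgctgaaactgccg
Ltbp1: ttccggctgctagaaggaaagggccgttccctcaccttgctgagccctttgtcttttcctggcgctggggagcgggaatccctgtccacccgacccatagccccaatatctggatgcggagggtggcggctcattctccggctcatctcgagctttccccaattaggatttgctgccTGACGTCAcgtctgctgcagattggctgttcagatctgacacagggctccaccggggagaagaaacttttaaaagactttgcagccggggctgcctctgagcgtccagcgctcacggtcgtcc

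The Tgfb1 window had none of the 5 motifs and a G and C content of 77%, against a median of 52.7% over 32851 promoters of the same length. The Tgfb2 window had 54.3% G and C, a TATAAA and a CACGTG. The Ltbp1 window shown had a TGACGTCA and 58.7% G and C. Another listed start of Ltbp1, with its window at chr17:75178531-75178830, had none of the 5 motifs and 50% G and C. Counts per gene do not separate the 2 starts. Of all promoters of this length, 13.6% held TATAAA, 7.15% CACGTG, 7.81% TGANTCA, 1.79% TGACGTCA and 0.213% GTCTAGAC. Promoters were listed for 7 of the 10 genes, and among the others only that of Inhba had a match, to TATAAA. A match is a string of letters and not a measured binding site.

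Kept cells had a median of 413142 gene reads in the Epcam+ and 414731 in the Epcam- population, and 24840769 and 107313931 reads in all. Levels are in counts per 1000000 gene reads (CPM), from reads summed over a population unless a single cell is named. All intervals are 95% and cover counting error only, taking each read or cell as independent. Without molecular identifiers several reads can come from 1 molecule, so the intervals of levels and ratios are too narrow even for that error. Epcam was at 1069 CPM in Epcam+ and 22.7 CPM in Epcam- cells, and was present, with 5 or more of 100000 thinned reads, in 11 Epcam- cells. The 5 dermal fibroblast markers summed to 95.7 CPM in Epcam+ cells (range over cells 0 to 1246 CPM) and to 4091 CPM in Epcam- cells (2.16 to 41720 CPM). Dcn carried most of this sum, at 81.3 and 3619.6 CPM, and was present in 78.7% of Epcam- cells. Pdgfra was at 14.1 and 262.4 CPM and present in 60.5% of Epcam- cells, while Pi16 had 0 and 12 reads. The part of that marker set in the differences below was not tested. The 6 immune markers summed to 25.4 and 20.7 CPM (highest cells 409 and 527 CPM), led by Cd68 at 15.3 and 7.99 CPM, with the defining marker Ptprc (CD45) at 0 and 10 reads. The 5 endothelial markers summed to 15.7 and 4.66 CPM, most of it Pecam1 at 13.3 and 4.603 CPM, with Emcn and Tek at 0 reads in both populations. Median gene reads per spike-in read were 221.1 and 157.2. The Epcam+ population sat in other plate rows than the Epcam- one, so population and plate row cannot be told apart. A well labelled as holding 0 cells stood apart, with 99241 gene reads and 9029 CPM of Krt14, and it is given below as the library labelled 0 cells.

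Of the 10 genes, 9 reached 10 CPM in either population, and 7 of these 9 were at least 2-fold higher in Epcam- cells. Among all 9574 genes at that level, 15.3% were at least 2-fold higher in Epcam- cells and 12.9% in Epcam+ cells. Ratios are log2 of (CPM + 1) in Epcam- over (CPM + 1) in Epcam+ cells. The median ratio of the 9 genes was 1.85, against -0.08 over all genes tested. No gene of the 9 was lower in Epcam- cells, while of all 9574 genes tested 4418 had a ratio above 0 and 5156 below 0. Tgfb1, which did not reach 10 CPM, was at -0.09. The smallest ratio of the 9 was that of Tgfbr1 at 0.09, which was -0.26 with spike-in scaling and -0.00877 with the stricter filter on cells. Without the 11 Epcam- cells in which Epcam was present, 8 of the 9 were 2-fold or more higher. In every one of the 10 genes the lowest cell of both populations had 0 reads, so the populations overlapped throughout, as the plot of levels by cell shows.

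**Figure D1:**
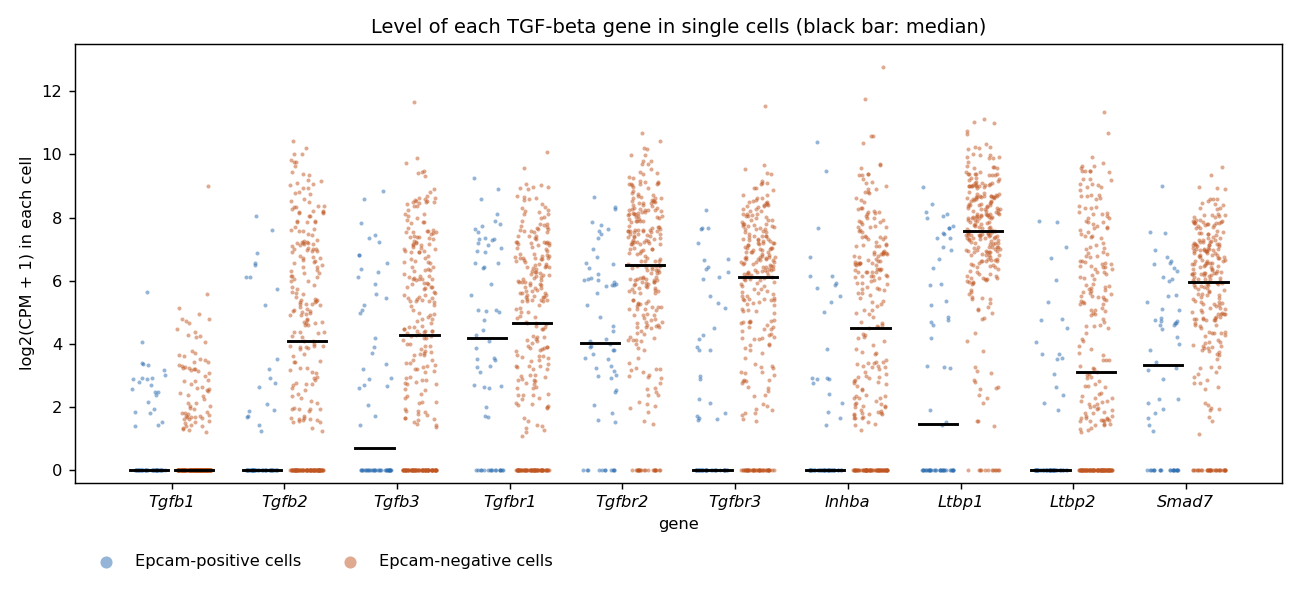
Level of each gene as log2(CPM + 1) in 62 Epcam+ (blue) and all kept Epcam- (orange) cells, with 1 point per cell and a black bar at the median. Median levels are 0 in both populations for Tgfb1, and the highest median is that of Ltbp1 in Epcam- cells (188.3 CPM), with every gene at 0 in some cells.

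Tgfb2 had the highest ratio of the 10 genes, with an interval that overlapped that of Ltbp2. This ligand, on chromosome 1 from 186622792 to 186705989 (ENSMUSG00000039239.14, GRCm38), is known for its need of the co-receptor Tgfbr3 to bind Tgfbr2 well. Over Epcam+ cells its level had a median of 0 and a highest value of 264.97 CPM, and over Epcam- cells a median of 16.1 and a highest value of 1375 CPM. The ratio was 2.75 (2.61 to 2.89), a 6.71-fold higher level. Tgfb2 was present in 7 of 62 Epcam+ cells (11.3%, exact Clopper-Pearson interval 4.66% to 21.9%) and in 98 Epcam- cells (37.3%, 31.4% to 43.4%). Most Epcam- cells thus fell below the presence rule, and 60.2% of the Tgfb2 reads lay in the 10% of these cells with the most.

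Tgfb3, a closely related ligand, had a smaller difference. It lies on chromosome 12 from 86056745 to 86079041 (ENSMUSG00000021253.6). The median cell had 0.833 CPM in the Epcam+ and 18.6 CPM in the Epcam- population, and the highest cells had 458 and 3249 CPM. Summed levels were 41.7 and 81.6 CPM, a ratio of 0.95 (0.86 to 1.04). This is just under 2-fold, and the ratio was 1.599 over plate columns 1 to 12 and 0.49 over columns 13 to 24. It was present in 22.6% of Epcam+ cells (12.9% to 34.97%) and in 37.3% of Epcam- cells, the same number as for Tgfb2. Tgfb2 and Tgfb3 were only loosely tied in Epcam- cells: 40 cells had both, 58 had Tgfb2 alone and 58 had Tgfb3 alone. The share with both was 15.2% (11.1% to 20.1%), against 13.9% for the product of the single shares.

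Tgfb1, the ligand most often studied in carcinomas, was low in both populations. The gene lies on chromosome 7 from 25687002 to 25705077 (ENSMUSG00000002603.15). It had 80 reads in Epcam+ and 319 in Epcam- cells, which is 3.22 CPM (2.55 to 4.01) and 2.97 CPM (2.66 to 3.32). The ratio was -0.09 (-0.36 to 0.19), with a median cell at 0 CPM in both populations and highest cells at 48.7 and 510 CPM. A read of Tgfb1 occurred in 38.7% of Epcam+ and 28.5% of Epcam- cells, but it was present in 0 of 62 cells, which allows up to 5.78%, and in 2 Epcam- cells (0.760%). The ratio was -1.01 over plate columns 1 to 12 and 1.20 over columns 13 to 24, and 28.8% of the Epcam- reads came from 1 cell.

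Inhba encodes the beta A subunit of activin A, a ligand that binds activin type II receptors and signals through the same Smad2 and Smad3 as TGF-beta. It lies on chromosome 13 from 16011851 to 16031621 (ENSMUSG00000041324.13). The median cell had 0 CPM in the Epcam+ and 21.5 CPM in the Epcam- population, and the highest cells had 1343 and 7057 CPM, the highest single-cell values of the 10 genes. Summed levels were 47.7 and 155.2 CPM, a ratio of 1.68 (1.599 to 1.77). Its reads were unevenly spread, with 53.6% of the Epcam+ reads in 1 cell and 20.9% of the Epcam- reads in 1 cell. Without these cells the levels were 22.5 and 123.3 CPM and the ratio was 2.40. Inhba was present in 10 Epcam+ cells (16.1%, 8.02% to 27.7%) and in 41.1% of Epcam- cells (35.1% to 47.3%).

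The latent TGF-beta binding proteins were both higher in Epcam- cells. Ltbp1, which ties latent TGF-beta to fibrillin fibres, was the gene of the set found in most Epcam- cells. It lies on chromosome 17 from 75005568 to 75392512 (ENSMUSG00000001870.15). Over Epcam+ cells the level had a median of 1.77 and a highest value of 495 CPM, and over Epcam- cells a median of 188.3 and a highest value of 2252 CPM. The lower quartile of Epcam- cells (90.97 CPM) was close to the upper quartile of Epcam+ cells (96.4 CPM). The ratio was 2.17 (2.10 to 2.24). Ltbp1 was present in 84.8% of Epcam- cells (79.9% to 88.9%) and in 29.03% of Epcam+ cells (18.2% to 41.9%).

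Ltbp2, a relative of Ltbp1 that binds fibrillin but is not known to carry TGF-beta, lies on chromosome 12 from 84783212 to 84876532 (ENSMUSG00000002020.15). The median cell was at 0 CPM in the Epcam+ and 7.65 CPM in the Epcam- population, with highest cells at 238.5 and 2605 CPM. Summed levels were 14.9 and 101.02 CPM, a ratio of 2.68 (2.54 to 2.82). It was present in 5 Epcam+ cells (8.06%, 2.67% to 17.8%) and in 90 Epcam- cells (34.2%, 28.5% to 40.3%). Ltbp2 was thus present in a minority of cells of either population, and Ltbp1 in most Epcam- cells. An antisense gene covers 9.34% of its exon bases, and no source used here gives the strand setting of the counting, so reads of the 2 genes cannot be told apart there. The same holds for Tgfb2, with an antisense gene over 2.14% of its exon bases, and for Tgfb3, with 2 genes on the opposite strand over up to 7.60% of its exon bases each. A gene on the same strand covers 4.54% of the exon bases of Tgfbr3.

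**Figure D2:**
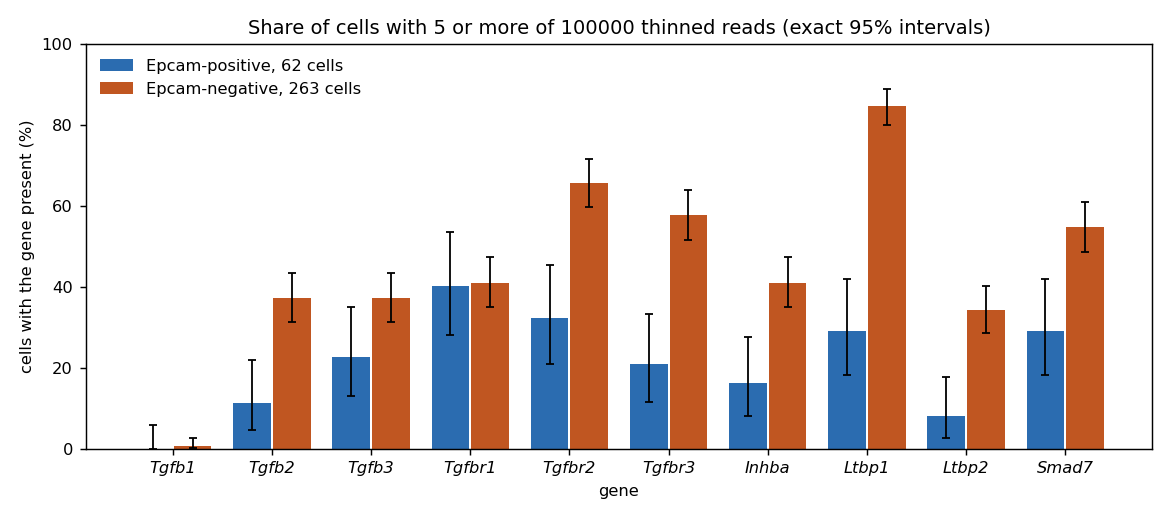
Share of cells (%) in which each gene had 5 or more of 100000 thinned reads, for 62 Epcam+ (blue) and all kept Epcam- (orange) cells, with exact 95% intervals as bars. The shares range from 0% to 40.3% in Epcam+ cells and from 0.760% to 84.8% in Epcam- cells, and Tgfbr1 has nearly the same share in both.

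The receptors did not move together. Tgfbr1, the type I receptor kinase on chromosome 4 from 47353222 to 47414931 (ENSMUSG00000007613.15), had nearly the same level in both populations. Its median cell was at 17.3 CPM in the Epcam+ and 24.1 CPM in the Epcam- population, and its highest cells were at 615 and 1077 CPM. Summed levels were 71.2 and 75.8 CPM, a ratio of 0.09 (0.02 to 0.16), and the ratio was 0.09 and 0.12 in the 2 sets of plate columns. It was present in 40.3% (28.1% to 53.6%) and 41.1% (35.1% to 47.3%) of cells. In Epcam+ cells Tgfbr1 was the gene of the set found in most cells.

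Tgfbr2, the type II receptor that binds the ligand, was higher in Epcam- cells. It lies on chromosome 9 from 116084293 to 116175360 (ENSMUSG00000032440.13). The median cell was at 15.4 and 89.99 CPM and the highest at 398 and 1637 CPM. Summed levels were 51.7 and 188.7 CPM, a ratio of 1.85 (1.77 to 1.93), with 2.31 over plate columns 1 to 12 and 1.48 over columns 13 to 24. It was present in 32.3% of Epcam+ cells (20.9% to 45.3%) and in 65.8% of Epcam- cells (59.7% to 71.5%).

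Tgfbr3, also called betaglycan, is a co-receptor without a kinase that presents ligand to Tgfbr2, and lies on chromosome 5 from 107106570 to 107289629 (ENSMUSG00000029287.14). The median cell was at 0 CPM in the Epcam+ and 68.01 CPM in the Epcam- population, and the highest at 302.6 and 2982 CPM. Summed levels were 24.96 and 114.6 CPM, a ratio of 2.16 (2.04 to 2.27). It was present in 21.0% (11.7% to 33.2%) and 57.8% (51.6% to 63.8%) of cells. The ratios correspond to a 3.60-fold higher Tgfbr2 and a 4.45-fold higher Tgfbr3, against 1.06-fold for Tgfbr1.

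Smad7 binds the type I receptor and blocks it, and is a known target of the pathway. It lies on chromosome 18 from 75367529 to 75395935 (ENSMUSG00000025880.11). The median cell was at 8.97 CPM in the Epcam+ and 61.5 CPM in the Epcam- population, and the highest cells were at 510 and 774 CPM. Summed levels were 28.6 and 94.98 CPM, a ratio of 1.70 (1.59 to 1.80). The gene was present in 29.03% (18.2% to 41.9%) and 54.8% (48.5% to 60.9%) of cells. In Epcam- cells 37.9% of its reads lay in the 10% of cells with the most, close to the 38.2% of Ltbp1.

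**Figure D3:**
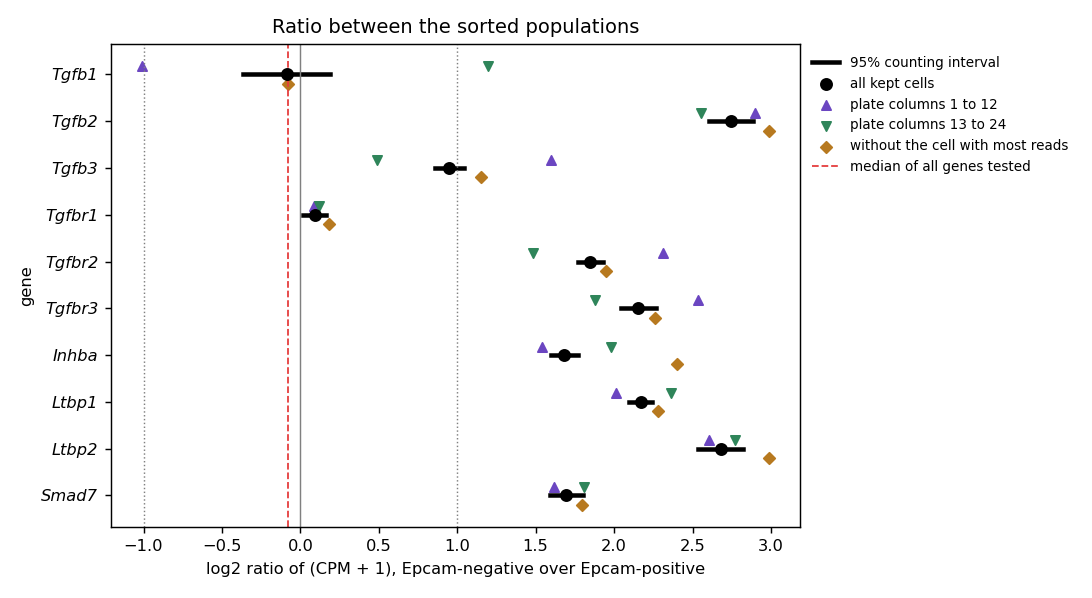
Log2 ratio of (CPM + 1) in Epcam- over Epcam+ cells for each gene, over all kept cells (black, with 95% counting intervals), in each set of plate columns (triangles) and without the cell with most reads of the gene in each population (diamonds). Dotted lines mark 2-fold and the dashed line the median of all genes tested (-0.08). Ratios run from -0.09 for Tgfb1 to 2.75 for Tgfb2, and Tgfb1 lies on different sides of 0 in the 2 sets of plate columns.

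The control wells were read at lower depth. The well labelled as holding 50 Epcam- cells had 154897 gene reads, and each of the 10 genes had a read. Its levels were 225.96 CPM for Ltbp1 (157.4 to 314), 200.1 CPM for Tgfbr2 (135.98 to 284.07) and 96.8 CPM for Tgfbr3 (54.2 to 159.7). These intervals hold the summed levels of the single Epcam- cells for all 3 genes. The same held for Smad7 at 77.5 CPM (40.03 to 135.3), Tgfbr1 at 58.1 CPM (26.6 to 110.3) and Tgfb1 at 6.46 CPM (0.163 to 35.97). Tgfb2, Tgfb3, Inhba and Ltbp2 each had 5 reads there, 32.3 CPM (10.48 to 75.3), and this interval ends below the 109.7, 81.6, 155.2 and 101.02 CPM of the single cells. The Epcam+ library labelled 0 cells had 30 reads in 8 of the 10 genes, none of them in Tgfb1 or Tgfb2. The Epcam- library labelled 0 cells had 4018 gene reads and 4 reads in the 10 genes.

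Levels of different genes can be compared only per exon length, as reads per kilobase of merged exons and 1000000 gene reads (RPKM). In Epcam- cells the order by RPKM was Ltbp1 (27.7), Inhba (24.3), Tgfb3 (24.1), Tgfbr2 (23.05), Smad7 (21.0), Tgfb2 (18.9), Tgfbr3 (17.5), Ltbp2 (12.3), Tgfbr1 (11.6) and Tgfb1 (0.590). The intervals of Inhba and Tgfb3 overlapped, and the pairs Ltbp1 and Inhba, Inhba and Tgfb3, Tgfbr2 and Smad7, and Tgfb2 and Tgfbr3 changed order between the 2 sets of plate columns. In Epcam+ cells the order was Tgfb3 (12.3), Tgfbr1 (10.9), Inhba (7.46), Smad7 (6.33), Tgfbr2 (6.32), Ltbp1 (6.08), Tgfbr3 (3.81), Tgfb2 (2.68), Ltbp2 (1.82) and Tgfb1 (0.639). Here each of the neighbours from Tgfb3 to Ltbp1 changed order between the sets of plate columns, and only the order from Ltbp1 down was the same in both. Tgfbr1 thus stood second in Epcam+ and ninth in Epcam- cells, and Tgfb1 was last in both.

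Single cells of the Epcam- population held more of the genes at once. The median number of the 10 genes present was 5 in Epcam- cells (quartiles 3 and 6, highest 8) and 2 in Epcam+ cells (quartiles 1 and 3, highest 8). None of the 10 was present in 5 Epcam- cells (1.90%, 0.620% to 4.38%) and in 12 Epcam+ cells (19.4%, 10.4% to 31.4%). A TGF-beta ligand (Tgfb1, Tgfb2 or Tgfb3) was present in 59.7% of Epcam- cells (53.5% to 65.7%) and in 17 Epcam+ cells (27.4%, 16.9% to 40.2%).

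Both signalling receptors, Tgfbr1 and Tgfbr2, were present together in 62 Epcam- cells (23.6%, 18.6% to 29.2%) and in 9 Epcam+ cells (14.5%, 6.86% to 25.8%). The products of the single shares were 27.01% and 13.01%, within these intervals. A ligand together with both receptors was present in 49 Epcam- cells (18.6%, 14.1% to 23.9%) and in 2 Epcam+ cells (3.23%, 0.393% to 11.2%). The products of the share with both receptors and the share with a ligand were 14.07% and 3.98%. The first lies beside the lower end of the interval, just below it. The error of the products was not counted, and co-occurrence was not tested. Ltbp1 accompanied Tgfb2 in 90 of the 98 Epcam- cells with Tgfb2, and Tgfb3 in 84 of 98 cells. These shares of all cells, 34.2% and 31.9%, were close to the product of the single shares (31.6% for both pairs).

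Across Epcam- cells the genes were weakly correlated. Over the 45 pairs Spearman's rho had a median of 0.117 and a range from -0.144 to 0.321 (n = 310 cells less the 47 left out), against a median of 0.0756 over all pairs of genes present in 20% or more of these cells. The cells share a plate, many values are 0, and rho is given as a description. The highest value was that of the receptors Tgfbr2 and Tgfbr3 (0.321, with 0.386 and 0.232 in the 2 sets of plate columns), followed by the ligands Tgfb2 and Inhba (0.284, with 0.377 and 0.159). The lowest were Tgfb2 with Tgfbr3 (-0.144) and Tgfbr1 with Tgfbr2 (-0.127, with 0.0473 and -0.271). In Epcam+ cells the 45 values ran from -0.240 to 0.351 (n = 62), with Tgfb3 and Tgfbr1 highest.

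**Figure D4:**
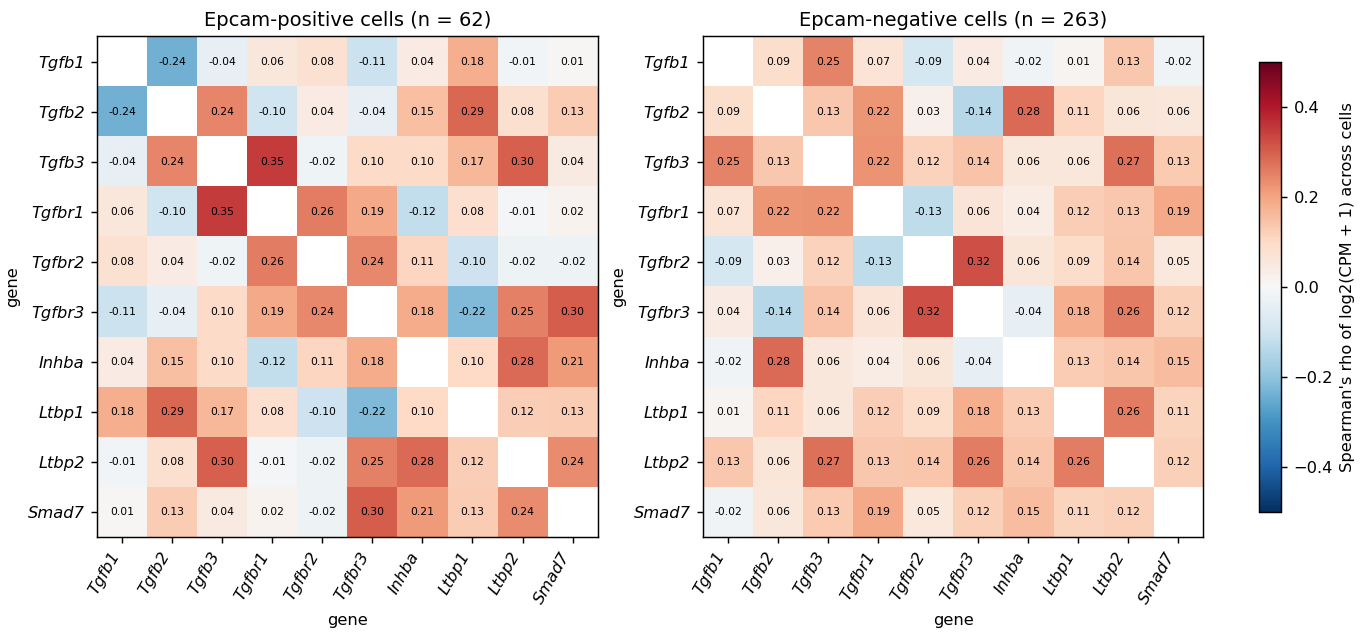
Spearman's rho of log2(CPM + 1) between each pair of the 10 genes across 62 Epcam+ (left) and all kept Epcam- cells (right), with red above and blue below 0. Values lie between -0.240 and 0.351 on the left and between -0.144 and 0.321 on the right.

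Krt14 is a keratin of basal epithelial cells, and 75 Epcam- cells still had 2 or more of 5 epithelial markers present. Of the 10 genes, Tgfbr2 had the lowest rho with Krt14 (-0.325, with -0.277 and -0.354 in the 2 sets of plate columns), followed by Ltbp2 (-0.246, with -0.176 and -0.291). Both lie below the 5th percentile of Krt14 with all other genes present in 20% of cells (-0.196), whereas Smad7 (0.0107) and Tgfb3 (-0.0281) were near 0. Tgfb2 had -0.339 in one set of columns and 0.1003 in the other. In the 11 Epcam- cells with Epcam present, Ltbp1 was present in 8 cells and at 237.7 CPM, while Tgfb2 and Tgfb3 were present in 0 of them and each at 5.46 CPM.

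For the 9 genes present in 20% or more of Epcam- cells, the 3 genes with the most similar pattern over the kept cells were taken from 5208 genes. Tgfb2 was most like Col5a2 (a collagen chain, rho 0.403), Cdh11 (a cadherin, 0.392) and Creb3l1 (0.380). Smad7 had the highest value of all, with the prostaglandin synthase gene Ptgs2 (0.482, with 0.618 and 0.355 in the 2 sets of columns), then the immediate early gene Nr4a1 (0.423) and the chemokine gene Cxcl1 (0.392). Tgfbr2 was most like the imprinted RNA gene Meg3 (0.422), Birc3 (0.416) and the filamin gene Flnc (0.398), and Tgfbr3 most like the proteoglycan gene Dcn (0.385), the matrilin gene Matn2 (0.361) and Nfat5 (0.345). Ltbp2 was most like Cp (0.408) and Postn (0.405), and Tgfb3 most like Spry1 (0.390), Prrx2 (0.368) and Nfatc1 (0.359). The values were lower for Ltbp1 with Gpm6b (0.333), Col5a2 (0.330) and Fstl1 (0.326), for Inhba with Srpx2 (0.321), Ccn4 (0.299) and Col5a3 (0.296), and for Tgfbr1 with Gpc1 (0.319), Mt1 (0.318) and Fzd1 (0.317). The 95th percentile of rho with all other genes was between 0.140 and 0.192 for these 9 genes. The named genes were picked as the highest of 5208, so they lie above this percentile by choice.

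Other genes of the pathway were read from 6 lists with 70 genes, of which 57 reached 10 CPM. Of the 57, 21 were at least 2-fold higher in Epcam- cells and 8 in Epcam+ cells, with a median ratio of 0.59. Over all genes tested these shares were 15.3% and 12.9%, so the number higher in Epcam+ cells was near that of all genes. The same 2 shares are the background for the counts of each list below. Genes that reached 10 CPM in only 1 population and had a few CPM or less in the other passed 2-fold through that filter. Bmp7, Bmp4, Gdf11, Itgb3 and Itgb6, named below, are among them. All genes tested went through the same filter. Among 11 genes of latency and activation, 6 were at least 2-fold higher in Epcam- cells. Fbn1, the fibrillin to which latent complexes attach, was at 53.1 and 772 CPM, a ratio of 3.84. Itgb3, the integrin chain that pairs with alpha V, had 2 reads in Epcam+ cells and 12.05 CPM in Epcam- cells, a ratio of 3.59 (3.33 to 3.69). Itgb6, the epithelial alpha V partner that activates latent TGF-beta, was the exception, at 39.5 and 0.578 CPM, a ratio of -4.68, and at 0.262 CPM without the Epcam- cell with most of its reads.

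Signal carriers differed little. None of the 5 measured Smads was 2-fold or more different, as held for most genes, since 6874 of all 9574 genes tested were within 2-fold. Smad4, the common partner, had a ratio of 0.74, Smad5, a carrier of BMP signals, 0.48 and Smad1, also a BMP carrier, -0.56. Of 7 other receptors, 2 were at least 2-fold higher in Epcam- cells, namely Acvrl1, an endothelial type I receptor (6.20 and 26.3 CPM, with 3.86 CPM in Epcam+ cells without the top cell, and a ratio of 0.84 in plate columns 1 to 12 against 4.82 in columns 13 to 24), and Cd109, a co-receptor that restrains TGF-beta signals in skin (27.7 and 100.6 CPM). Acvr1b, the activin type I receptor, had a ratio of -0.88.

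Among 5 other ligands of the family, Bmp7 was at 58.3 and 2.61 CPM, a ratio of -4.04. Bmp4 was at 2.74 and 25.2 CPM and Gdf11 at 3.86 and 25.5 CPM (2.30 CPM in Epcam+ cells without the top cell). Each of these ligands reached 10 CPM in only 1 population, so passing 2-fold followed from the filter. Of 12 feedback genes and inhibitors, 2 were higher by 2-fold or more in each population, a share near that of all genes (15.3% and 12.9%). Fstl1, a secreted glycoprotein, had a ratio of 4.10 while Fst, which traps activin, was at 1399 and 429.96 CPM, a ratio of -1.70. Bambi, a decoy receptor, had a ratio of -1.40 at 46.7 and 17.1 CPM, but -2.31 and 0.27 in the 2 sets of plate columns and 30.3 CPM in Epcam+ cells without the top cell. Named after their values were seen, the other known feedback targets Skil (0.35) and Pmepa1 (-0.31) did not share the ratio of Smad7.

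Of 17 target genes, 9 were at least 2-fold higher in Epcam- cells and 4 in Epcam+ cells, with a median of 2.31. Named after their values were seen, these 4 were Id1 (-2.07), Id2 (-1.78), Tgfbi (-1.68) and Cdkn1a (-1.06). The list takes no account of the direction in which the pathway moves each gene, and pathway activity was not tested. The highest ratios were those of the matrix genes Col1a1 (7.25), Postn (5.46) and Fn1 (5.22), which encode a collagen chain, periostin and fibronectin. Col1a1 was at 7.33 CPM and Postn at 55.2 CPM in Epcam+ cells without the top cell, against 15.98 and 85.02 CPM with it.

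**Figure D5:**
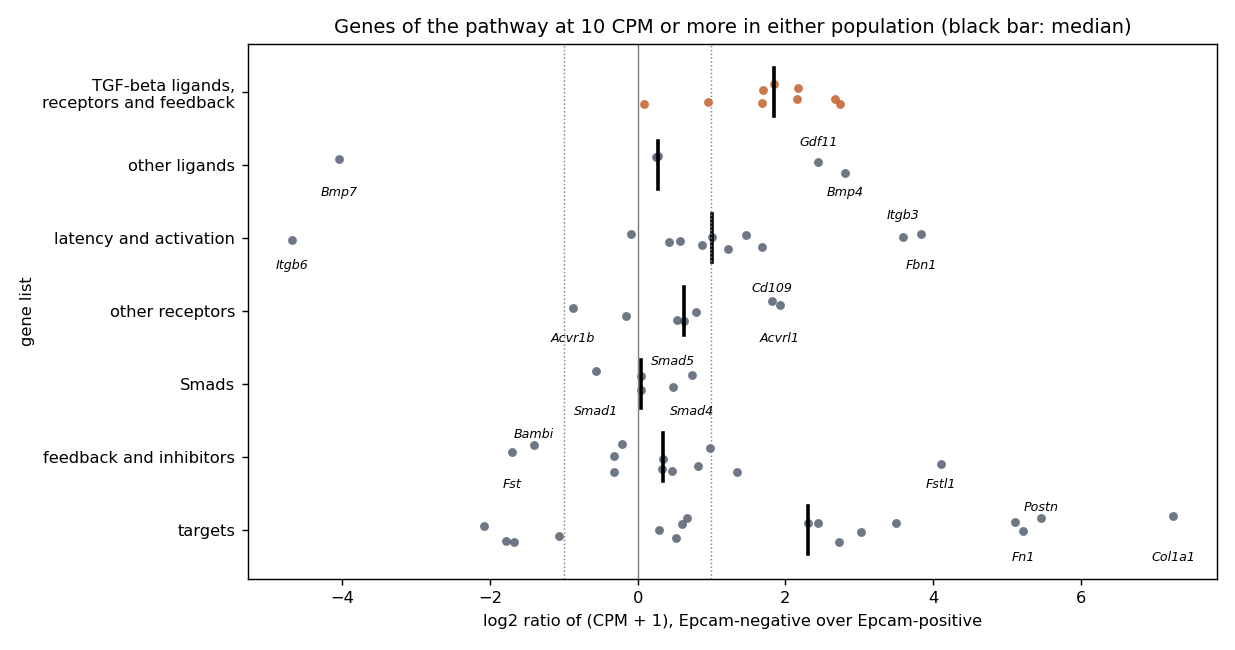
Log2 ratio of (CPM + 1) in Epcam- over Epcam+ cells for the 9 described genes at 10 CPM or more (orange) and for 57 other genes of the pathway by list (grey), with black bars at the medians and dotted lines at 2-fold. The described genes have a median of 1.85, the Smads stay within 2-fold, and Bmp7 and Itgb6 lie at -4.04 and -4.68.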

How the data were processed

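Raw read counts per gene and spike-in were deposited by the authors for 383 wells. Per the submitters' processing notes, the tools were cutadapt 1.13, STAR 2.5.2b and HTSeq 0.6.0, with the build GRCm38. Their annotation and strand setting were not given in the sources used here. Symbols, positions and exons came from GENCODE vM21, which matched 49326 of 49585 gene identifiers. Cells were kept with at least 100000 gene reads, 2000 genes, at most 20% mitochondrial and 50% spike-in reads. No wells had identical counts. Counts were summed per population and scaled to CPM, with a pseudocount of 1 CPM. Presence was 5 of 100000 thinned reads. With 1 sample per population no test was made. Intervals are exact (Poisson, Clopper-Pearson, conditional binomial). Ratios were checked on simulated counts. The 10 genes and the lists were chosen with earlier results of these data known. Beyond the 10 genes, the 3 largest absolute ratios of each list, and per gene the 3 highest rho among genes present in 20% of Epcam- cells, are named. Alternatives were other cell filters, scalings (edgeR 4.0.16 for TMM, DESeq2 1.42.0 for median-of-ratios), pseudocounts, presence rules, plate columns and left-out cells. Another engineered allele of the mice and some genes that these rules would name are not reported here.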

Additional observations from a re-analysis of the deposited data

Results flagged for a closer look

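Among the 10 genes and the pathway genes named with values above, the ratio of 3 had opposite signs in the 2 sets of plate columns, both of which hold Epcam+ and Epcam- cells, and the difference between the sets was not tested. Tgfb1 was at -1.01 in columns 1 to 12 and 1.20 in columns 13 to 24. Bambi was at -2.31 in columns 1 to 12 and 0.27 in columns 13 to 24. Skil was at 0.78 in columns 1 to 12 and -0.17 in columns 13 to 24. Among genes of the pathway lists at 10 CPM or more in either population, opposite signs also occurred in Furin, Inhbb, Smad2, Smad3, Smurf1 and Tgif1.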

How the results depend on the processing

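The count of genes at least 2-fold higher in Epcam- cells was 7 or 8 under all alternatives, the eighth being Tgfb3. The median ratio of the 9 genes at 10 CPM or more, 1.85, was 1.94 with the stricter cell filter and 1.67 with the mean of the CPM of each cell. It was 1.98 with TMM, 1.96 with median-of-ratios, 1.50 with spike-in scaling and 1.69 with a pseudocount of 10 CPM. In plate columns 1 to 12 it was 2.01, and without the cell with most reads of each gene 2.26. With spike-in scaling the median of all genes tested was -0.45, and with TMM 0.06. Tgfb2, Tgfbr2, Tgfbr3, Inhba, Ltbp1, Ltbp2 and Smad7 stayed past 2-fold in all 12 other settings, with the lowest ratio of each between 1.34 and 2.23. Tgfb3 ran from 0.49 to 1.599, Tgfbr1 from -0.26 to 0.22 and Tgfb1 from -1.01 to 1.20. The cause of these shifts was not tested. All 10 genes were present in a larger share of Epcam- than Epcam+ cells. The difference was small for Tgfbr1 (41.1% against 40.3%) and Tgfb1 (0.760% against 0%). The number was 8 when presence needed 1 read, 9 when it needed 20 reads and 9 at 50000 thinned reads. With 1 read, Tgfb1 was in 12.9% of Epcam- and 24.2% of Epcam+ cells. The share of all genes with this direction is not given, so these counts only describe the 10 genes. No paired analysis was possible because the labels give no replicate numbers.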
